A study of Mus musculus with 80 samples.

Results

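Fatty acid oxidation and the citrate cycle are described here through 35 genes, chosen by name: 19 of mitochondrial fatty acid oxidation and 16 of the citrate cycle and the entry of pyruvate into it. All 35 were measured, each by 1 array feature, among the 38827 genes that carry a symbol. The arrays measured RNA of the white fat beneath the skin of male mice. The mice were BXD inbred strains, bred from the progeny of C57BL/6J mated with DBA/2J, and these parental strains themselves. All mice were killed at 29 weeks of age after an overnight fast from 6 pm to 9 am. One group of 42 strains (40 BXD and both parents) had eaten a chow diet, Harlan 2018, for life, and the other group of 38 strains (36 BXD and both parents) had eaten a high fat diet, Harlan 06414, from week 8. RNA of about 5 animals per strain and diet was pooled before hybridisation, so each of the 80 arrays is a pool and no strain has a replicate within a diet. The strains BXD56, BXD60, BXD92a and BXD96 had a chow array only, and comparisons of diets used the 38 strains with both.

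Mitochondria take up long-chain fatty acids through the carnitine shuttle and shorten them in repeated rounds of beta-oxidation, each of which opens with an acyl-CoA dehydrogenase and ends with the release of acetyl-CoA. The citrate cycle oxidises that acetyl-CoA together with the acetyl-CoA made from pyruvate, and both pathways hand electrons to the respiratory chain. In white fat these pathways run at a low rate next to storage and release of fat, and they are abundant in brown and beige fat cells, which burn fatty acids for heat, and in skeletal muscle.

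The values are a deposited score on which every array has a mean of 8 and an SD of 2 over its 65770 features, so 1 unit is 0.5 SD of an array and a difference in units is not a fold change. A level of one gene is not set against that of another, since probes differ in brightness. Fat cell markers were high on every array, with list means between 13.55 and 14.28 among the 38 strains. The mean of 18 skeletal muscle markers ranged from 8.73 to 14.09 on chow and from 8.81 to 13.52 on high fat, and that of 10 B cell and lymph node markers from 8.48 to 11.63 and from 8.12 to 11.73. With tissue RNA, fewer cells of a type and less RNA per cell cannot be told apart. The strain labels did not carry across the diets in every strain. Over the 200 genes with the largest differences between the parents in the same direction on both diets, the chow array of 21 of 36 BXD strains correlated best with the high fat array of the same strain, with r of at least 0.62. In the other 15 it did not, and their own r was at most 0.505 (BXD51, BXD55, BXD63, BXD73, BXD75, BXD79, BXD80, BXD81, BXD83, BXD84, BXD85, BXD87, BXD89, BXD90 and BXD95). The parental arrays served to choose those genes and were not checked. No array was moved, and the main diet, strain and parental counts are given for all 38 strains and for the 23 left without those 15. Fits with marker covariates and the correlations of changes between gene pairs were made on all 38 only. Arrays of 2 strains also stood apart on high fat: BXD63 was the lowest of 38 in 12.8% of all genes and the highest in 16.6%, and C57BL/6J was the lowest in 20.2% and the highest in 8.41%. BXD63 on high fat was the lowest array for 12 of the 35 genes and C57BL/6J on high fat for 0.

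High fat feeding went with higher levels of much of the fatty acid oxidation pathway. In a limma fit paired by strain, 12 of the 19 fatty acid oxidation genes rose, 0 fell and 7 did not pass an adjusted p of 0.05 (Benjamini-Hochberg over all 38827 genes). Of the 16 citrate cycle and pyruvate genes, 9 rose, 1 fell and 6 did not pass. Most genes of the array passed this test: 61.2% of all genes were called, 36.7% as higher and 24.5% as lower, so the share called among the 35 genes, 62.9%, was near the background, while 21 of them were called higher. The median change was 0.16 units over the fatty acid oxidation genes and 0.12 over the citrate cycle and pyruvate genes, against 0.027 over all genes. Without the 15 strains the counts of higher genes were 16 of 19 and 11 of 16, against 32.5% of all genes, and 0 of the 35 genes were lower, against 22.2%.

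**Figure D1:**
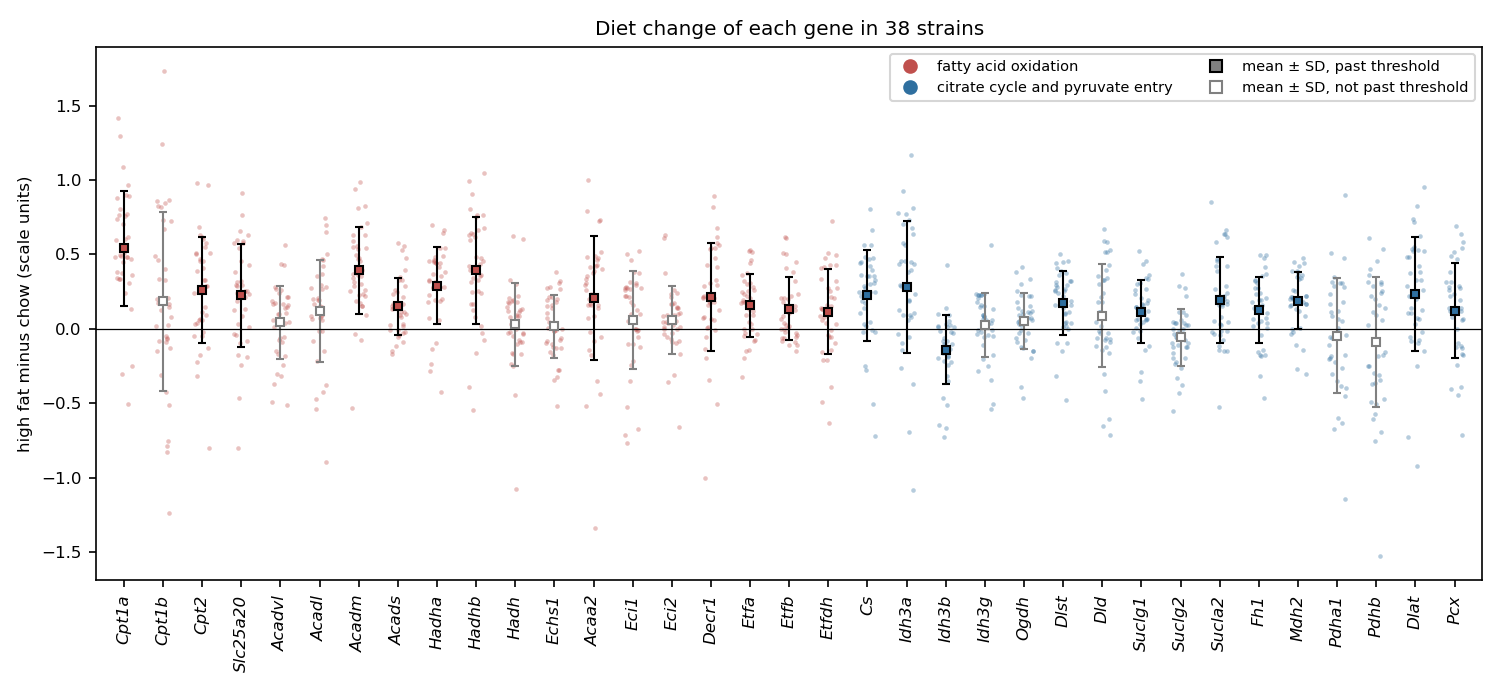
Each point is 1 of 38 strains, plotted as the high fat level minus the chow level of a gene in scale units, with the mean and SD over strains as a square and bar; filled squares passed the adjusted threshold. Cpt1a has the highest mean, 0.54 units, and Idh3b is the one gene with a filled square below 0.

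The carnitine shuttle rose in 3 of its 4 genes. Cpt1a, the carnitine palmitoyltransferase form typical of liver that makes acylcarnitine at the outer membrane, ran from 10.55 to 12.26 on chow with a median of 11.48, and from 11.08 to 12.71 on high fat with a median of 12.07. The ranges overlapped, although the median on high fat lay near the top of the chow range. Its paired change was 0.54 ± 0.38 units (SD, n = 38 strains; SE 0.060; adjusted p = 6.29e-10, limma), and 35 strains were higher on high fat. Cpt1a alone among the 35 genes changed by at least 0.5 units, as 1.81% of all genes did. Without the 15 strains its change was 0.59 units, with 22 of 23 higher. Cpt1b, the form typical of muscle and brown fat, ran from 8.89 to 11.78 on chow with a median of 9.88, and from 9.31 to 11.75 on high fat with a median of 10.18. Its change of 0.18 ± 0.60 units (adjusted p = 0.0857, limma) did not pass, and its change varied more between strains than that of any other of the 35 genes. It passed when BXD43, BXD55, BXD90 or BXD101 was left out (adjusted p down to 0.0284, limma). Cpt2, which turns acylcarnitine back into acyl-CoA at the inner membrane, ran from 11.06 to 12.49 on chow with a median of 11.61, and from 11.32 to 12.76 on high fat with a median of 11.81. It rose by 0.26 ± 0.36 units in 30 of 38 strains (adjusted p = 0.000116, limma). Slc25a20, the carnitine-acylcarnitine carrier between those enzymes, ran from 10.56 to 12.32 on chow with a median of 11.43, and from 11.29 to 12.45 on high fat with a median of 11.67. It rose by 0.22 ± 0.35 units in 29 strains (adjusted p = 0.000522, limma). Both sets of ranges overlapped between the diets over most of their length.

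Among the 4 acyl-CoA dehydrogenases, which catalyse the first oxidation of each round, those for medium and short chains rose. Acadm, for medium chains, ran from 12.24 to 13.56 on chow with a median of 13.13, and from 12.64 to 14.03 on high fat with a median of 13.47. Most strains moved upward: it rose by 0.39 ± 0.29 units, in 35 of 38 strains (SE 0.046, adjusted p = 2.16e-09, limma), and by 0.44 units in the 23. Acads, for short chains, ran from 10.36 to 11.08 on chow with a median of 10.71, and from 10.42 to 11.55 on high fat with a median of 10.85, and rose by 0.15 ± 0.19 units in 28 strains (adjusted p = 8.03e-05, limma). Acadvl, for very long chains, ran from 10.80 to 12.04 on chow with a median of 11.13, and from 10.68 to 12.25 on high fat with a median of 11.24. The high fat range was wider at both ends, and the change of Acadvl of 0.043 ± 0.24 units did not pass (adjusted p = 0.348, limma). Acadl, for long chains, changed by 0.12 ± 0.34 units with an adjusted p of 0.0509 (limma), just outside the threshold, and it passed when any of 8 strains was left out (adjusted p down to 0.00827, limma). In the 23 strains it passed at 0.19 units (adjusted p = 0.00135, limma).

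The later steps of the spiral rose where the trifunctional protein and the last thiolase act. Hadha, the trifunctional subunit with the hydratase and long-chain hydroxyacyl-CoA dehydrogenase, ran from 12.03 to 13.35 on chow with a median of 12.45, and from 12.40 to 13.54 on high fat with a median of 12.78. Hadhb, the subunit with the long-chain thiolase, ran from 11.36 to 13.30 on chow with a median of 12.21, and from 12.03 to 13.43 on high fat with a median of 12.64. In both genes the lower end of the range moved up more than the upper end. Hadha rose by 0.29 ± 0.26 units and Hadhb by 0.39 ± 0.36 units, each in 33 of 38 strains (adjusted p = 9.97e-08 and 1.4e-07, limma), and their changes in the 23 strains were 0.37 and 0.46 units. Acaa2, the thiolase for medium chains, rose by 0.21 ± 0.41 units in 29 strains (adjusted p = 0.0057, limma). Hadh, the dehydrogenase for shorter hydroxyacyl chains, changed by 0.031 ± 0.28 units and did not pass (adjusted p = 0.555, limma), but it passed in the 23 strains at 0.11 units (adjusted p = 0.0439, limma). Echs1, the short-chain enoyl-CoA hydratase, ran from 11.11 to 12.07 on chow with a median of 11.52, and from 11.04 to 12.07 on high fat with a median of 11.52. Its medians were nearly equal and its strains split evenly, 19 higher and 19 lower (change 0.017 ± 0.21 units, adjusted p = 0.68, limma).

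Of the 3 enzymes that deal with double bonds, Decr1 rose. Decr1, the dienoyl-CoA reductase needed for polyunsaturated chains, ran from 11.55 to 13.07 on chow with a median of 12.33, and from 11.67 to 13.18 on high fat with a median of 12.57. It rose by 0.21 ± 0.36 units in 31 strains (adjusted p = 0.00156, limma). The isomerases Eci1 and Eci2, which shift double bonds into the position the spiral can use, changed by 0.060 ± 0.33 and 0.059 ± 0.23 units and did not pass (adjusted p = 0.32 and 0.162, limma), but both passed in the 23 strains at 0.11 and 0.13 units (adjusted p = 0.0282 and 0.0121, limma). All 3 genes of the electron transfer flavoprotein, which carries electrons from the dehydrogenases to ubiquinone, rose by small amounts. The subunits Etfa and Etfb rose by 0.16 ± 0.21 and 0.14 ± 0.21 units (adjusted p = 0.000113 and 0.000667, limma), and Etfdh, the oxidoreductase that receives their electrons, by 0.12 ± 0.29 units (adjusted p = 0.0267, limma). Etfb and Etfdh lost their calls after quantile normalization (0.072 and 0.043 units, adjusted p = 0.0573 and 0.351, limma).

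In the citrate cycle 7 of 12 genes rose and 1 fell. Cs, citrate synthase, which joins acetyl-CoA to oxaloacetate, ran from 13.09 to 14.29 on chow with a median of 13.60, and from 13.23 to 14.45 on high fat with a median of 13.83. It rose by 0.23 ± 0.30 units in 31 of 38 strains (SE 0.048, adjusted p = 0.000109, limma). The genes of the NAD-dependent isocitrate dehydrogenase did not move alike. Idh3a, its catalytic subunit, ran from 11.38 to 13.04 on chow with a median of 12.27, and from 11.64 to 13.33 on high fat with a median of 12.56, and rose by 0.28 ± 0.44 units in 30 strains (adjusted p = 0.000644, limma). Idh3b, its beta subunit, ran from 12.26 to 13.55 on chow with a median of 12.88, and from 12.37 to 13.18 on high fat with a median of 12.77: it fell, with a change of -0.14 ± 0.23 units and 27 strains lower (adjusted p = 0.0013, limma). Without the 15 strains Idh3b changed by -0.094 units and no longer passed (adjusted p = 0.1, limma). Idh3g, the gamma subunit, changed by 0.025 ± 0.22 units (adjusted p = 0.551, limma). The differences between these 3 changes were not tested.

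From the oxoglutarate dehydrogenase complex to malate dehydrogenase, 5 of 8 members rose and 0 fell. Dlst, the succinyltransferase of the oxoglutarate dehydrogenase complex, ran from 11.24 to 12.13 on chow with a median of 11.55, and from 11.37 to 12.30 on high fat with a median of 11.75, and rose by 0.18 ± 0.21 units in 32 strains (adjusted p = 3.35e-05, limma). Its partners Ogdh, the decarboxylase, and Dld, the lipoamide dehydrogenase shared with other complexes, changed by 0.053 ± 0.19 and 0.088 ± 0.35 units and passed in the 23 strains (adjusted p = 0.0195 and 0.0454, limma) but not in all 38 (adjusted p = 0.13 and 0.16, limma). Sucla2, the ATP-forming subunit of succinate-CoA ligase, ran from 10.62 to 11.51 on chow with a median of 10.96, and from 10.78 to 11.66 on high fat with a median of 11.16, and rose by 0.19 ± 0.29 units in 27 strains (adjusted p = 0.000358, limma). Suclg1, the subunit common to both forms of that enzyme, ran from 9.95 to 10.95 on chow with a median of 10.31, and from 9.99 to 11.29 on high fat with a median of 10.43, and rose by 0.12 ± 0.21 units (adjusted p = 0.00332, limma), a call lost after quantile normalization (0.040 units, adjusted p = 0.268, limma). Suclg2, the GTP-forming subunit, changed by -0.057 ± 0.19 units and did not pass (adjusted p = 0.113, limma). Fumarase, Fh1, rose by 0.13 ± 0.22 units (adjusted p = 0.00249, limma), which was lost in the same way (0.053 units, adjusted p = 0.122, limma). Mdh2, the mitochondrial malate dehydrogenase that closes the cycle, ran from 12.23 to 13.12 on chow with a median of 12.66, and from 12.43 to 13.39 on high fat with a median of 12.84. It rose by 0.19 ± 0.19 units in 32 strains (adjusted p = 2.04e-06, limma), the lowest adjusted p of the 16 citrate cycle and pyruvate genes.

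Of the genes that bring pyruvate in, Dlat and Pcx rose. Dlat, the acetyltransferase of the pyruvate dehydrogenase complex, ran from 9.69 to 11.37 on chow with a median of 10.25, and from 9.81 to 11.26 on high fat with a median of 10.54, and rose by 0.23 ± 0.38 units in 29 strains (adjusted p = 0.00106, limma). Pdhb, the beta subunit of the decarboxylase of that complex, ran from 12.52 to 14.31 on chow with a median of 13.13, and from 12.52 to 13.65 on high fat with a median of 13.07. It and the alpha subunit Pdha1 changed by -0.087 ± 0.44 and -0.045 ± 0.39 units and did not pass (adjusted p = 0.275 and 0.533, limma). Pcx, pyruvate carboxylase, which makes oxaloacetate from pyruvate, ran from 11.46 to 12.96 on chow with a median of 12.07, and from 11.68 to 12.81 on high fat with a median of 12.24. Its rise of 0.12 ± 0.32 units passed narrowly (adjusted p = 0.0332, limma), and the call was lost when BXD45, BXD48, BXD62, BXD85, BXD95, BXD99 or BXD100 was left out, with adjusted p up to 0.0585 (limma).

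In the 23 strains with matching labels or parental labels, the genes called higher in all 38 were called higher too. Their changes there were 0.33 units for Cpt2, 0.27 for Slc25a20, 0.18 for Acads, 0.30 for Acaa2, 0.28 for Decr1, 0.20 for Etfa, 0.16 for Etfb and 0.17 for Etfdh. In the citrate cycle and pyruvate group they were 0.27 units for Cs, 0.31 for Idh3a, 0.21 for Dlst, 0.20 for Sucla2, 0.14 for Suclg1, 0.17 for Fh1, 0.23 for Mdh2, 0.30 for Dlat and 0.20 for Pcx. Cpt1b, Acadvl, Echs1, Idh3g, Suclg2, Pdha1 and Pdhb passed in neither set, with changes in the 23 strains of 0.10, 0.083, 0.070, 0.076, -0.007, 0.029 and -0.015 units.

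Markers of other cells moved with the diet beside these genes. Of 10 macrophage markers 9 rose and 0 fell, and their mean rose in 36 of 38 strains, from a range of 9.49 to 11.31 on chow to 9.79 to 11.91 on high fat. Of 18 skeletal muscle markers 0 rose and 14 fell, with a mean change of -0.90 ± 2.06 units over strains. Of 10 brown and beige markers 7 rose and 2 fell (Cidea, a lipid droplet protein abundant in brown fat, and the coactivator Ppargc1a), and the heat-producing carrier Ucp1 rose by 1.16 ± 1.54 units (adjusted p = 6.85e-05, limma). Beside these counts, 36.7% of all genes rose and 24.5% fell. Over the 23 strains 10 macrophage markers rose, 18 muscle markers fell, and 5 beige markers rose and 1 fell. Of all genes 32.5% rose and 22.2% fell there. With the macrophage mean in the fit, 6 fatty acid oxidation and 2 citrate cycle and pyruvate genes were called higher, against 20.6% of all genes, and with the beige mean 6 and 1, against 30.4%. With muscle, B cell and skin marker means they were 8 and 4, against 30.1%. Cpt1a, Acadm, Acads, Hadha, Hadhb and Mdh2 were called higher in all 3 of those fits. The change of Cpt1a was 0.24 units (adjusted p = 0.0208, limma) with the macrophage mean in the fit and 0.59 units (adjusted p = 2.98e-08, limma) with the beige mean.

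The promoters of the genes with the largest changes are shown because they let the sequence upstream be read beside the diet values, and those of Hadha and Hadhb because both genes moved together. They come from RefSeq (build GRCm38.p6) and span 250 bases before to 50 after the start of transcription, written 5′ to 3′ along the gene. Cpt1a lies at chr19:3323051-3323350 on the plus strand, Acadm at chr3:153944594-153944893 on the minus strand, Hadha at chr5:30154931-30155230 on the minus strand and Hadhb at chr5:30155003-30155302 on the plus strand. Capitals mark TGACCT, the reverse complement of AGGTCA, the 6-letter core bound by nuclear receptors such as the PPARs and the estrogen-related receptors.
Cpt1a: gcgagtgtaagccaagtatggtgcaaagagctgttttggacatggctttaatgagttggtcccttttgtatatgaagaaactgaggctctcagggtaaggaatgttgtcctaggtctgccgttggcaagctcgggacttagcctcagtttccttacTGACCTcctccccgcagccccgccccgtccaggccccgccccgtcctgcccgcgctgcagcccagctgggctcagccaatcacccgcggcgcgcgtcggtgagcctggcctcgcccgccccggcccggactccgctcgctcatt
Acadm: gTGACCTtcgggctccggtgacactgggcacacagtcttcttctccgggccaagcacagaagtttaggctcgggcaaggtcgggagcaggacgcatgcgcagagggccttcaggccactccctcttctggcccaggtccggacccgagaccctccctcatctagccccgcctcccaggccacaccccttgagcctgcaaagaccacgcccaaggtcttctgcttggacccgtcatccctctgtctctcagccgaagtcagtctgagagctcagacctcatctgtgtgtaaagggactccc
Hadha: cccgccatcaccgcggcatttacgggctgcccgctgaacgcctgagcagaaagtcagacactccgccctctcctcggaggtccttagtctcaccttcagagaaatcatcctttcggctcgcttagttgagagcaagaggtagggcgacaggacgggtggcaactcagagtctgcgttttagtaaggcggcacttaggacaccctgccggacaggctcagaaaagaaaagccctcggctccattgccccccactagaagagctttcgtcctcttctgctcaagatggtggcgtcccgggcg
Hadhb: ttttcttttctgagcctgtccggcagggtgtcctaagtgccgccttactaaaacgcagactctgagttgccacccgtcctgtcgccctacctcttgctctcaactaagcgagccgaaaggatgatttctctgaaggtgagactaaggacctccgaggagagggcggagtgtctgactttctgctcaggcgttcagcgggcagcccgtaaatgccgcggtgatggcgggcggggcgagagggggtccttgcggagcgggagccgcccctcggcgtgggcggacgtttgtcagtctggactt
The core stands at position -94 from the start in Cpt1a and at -249 in Acadm, and the Hadha and Hadhb windows, which overlap because the genes start head to head, hold none. On either strand AGGTCA occurred in 9 of the 31 genes of the set with a window (29.0%: Acadm, Acadvl, Cpt1a, Echs1, Fh1, Idh3g, Ogdh, Pcx and Sucla2), against 18.1% of 27025 genes. A pair of cores spaced by 1 base, AGGTCANAGGTCA, was in 0 of 31 and in 0.0481% of genes, and the extended core TCAAGGTCA was in 0 of 31 and in 0.466%. Both longer motifs contain the core. Windows for Decr1, Cpt1b, Idh3a and Acaa2 were not used here. A match describes letters in the window and is not a site of binding.

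As pathway means, the change on high fat was larger for fatty acid oxidation in most strains. The mean of the 19 fatty acid oxidation genes ran from 11.22 in C57BL/6J to 12.31 in BXD101 on chow and from 11.60 in BXD83 to 12.58 in DBA/2J on high fat. It changed by 0.19 ± 0.22 units (SD, n = 38 strains) and was higher in 32 strains. The mean of the 16 citrate cycle and pyruvate genes ran from 11.53 in C57BL/6J to 12.62 in BXD101 on chow and from 11.66 in BXD75 to 12.59 in DBA/2J on high fat. It changed by 0.094 ± 0.24 units and was higher in 27 strains. Within strains the first change exceeded the second by 0.096 ± 0.10 units, in 31 of 38 strains, with no test given since the genes were chosen by hand. The changes in the 23 strains were 0.24 and 0.14 units. Few strains kept a steady muscle marker level: in the 9 strains where that mean differed by at most 1 unit between diets, the changes were 0.17 and 0.017 units. These strains include BXD101, whose citrate cycle and pyruvate mean changed by -0.65 units and weighs on the second value. They also include both parents, and BXD75, BXD79 and BXD95, whose labels did not match between diets.

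The pathway means of the strains with only a chow array fell inside the chow ranges, with fatty acid oxidation and citrate cycle means of 11.90 and 12.26 in BXD56, 11.42 and 11.59 in BXD60, 11.88 and 12.13 in BXD92a, and 11.87 and 11.86 in BXD96. BXD60 had the lowest fatty acid oxidation mean after C57BL/6J, and for 7 single genes it lay below all 38 strains (Acads, Echs1, Etfa, Dlst, Suclg2, Fh1 and Mdh2). BXD92a lay above them for Cpt1a and BXD96 for Acaa2. BXD101, the highest strain on chow for both means, changed by -0.36 units in fatty acid oxidation and -0.65 units in the citrate cycle mean, and its beige marker mean changed from 10.06 to 9.26. BXD63, whose labels did not match between diets, changed by -0.33 and -0.52 units, and its muscle marker mean went from 10.12 to 13.52. C57BL/6J, the lowest on chow for both means, had the largest fatty acid oxidation change, 0.58 units, beside a citrate cycle change of 0.34 units, and BXD62 had the largest citrate cycle change, 0.41 units.

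**Figure D2:**
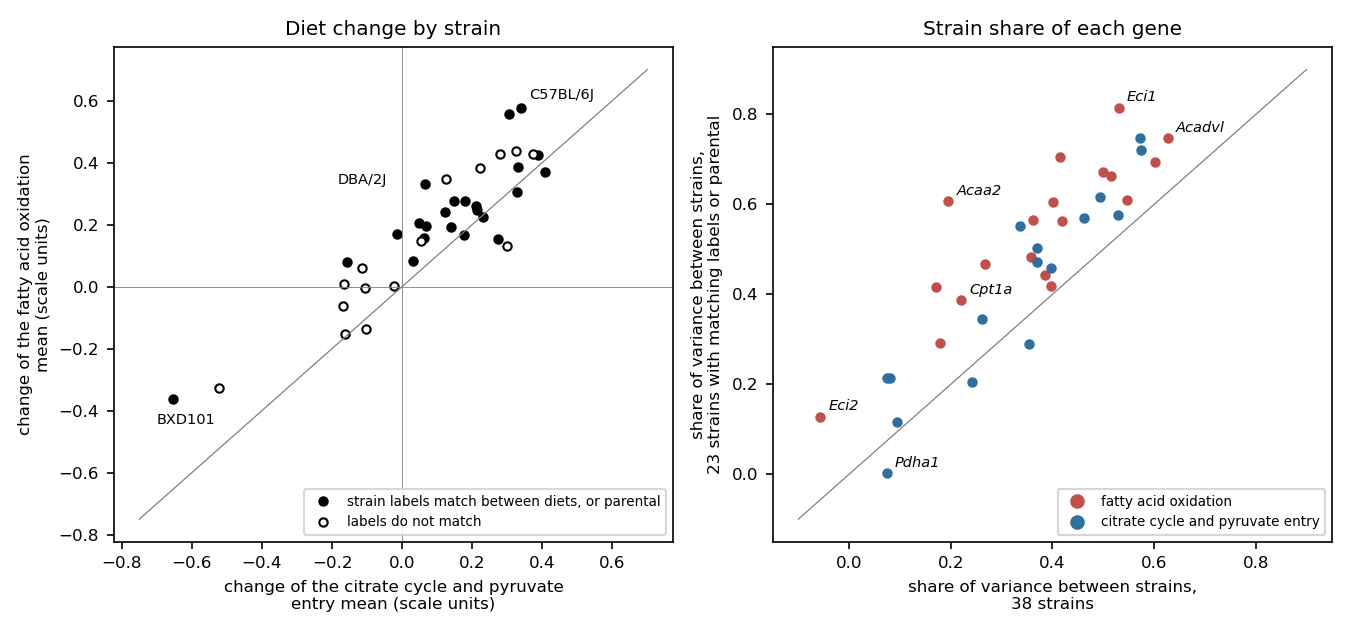
Left, each point is a strain, with the change of the citrate cycle and pyruvate mean on the x axis and of the fatty acid oxidation mean on the y axis in scale units, open circles for the 15 strains whose labels did not match between diets, and a line of equality; 31 of 38 strains lie above it. Right, each point is a gene, with the share of variance between strains over 38 strains on the x axis and over 23 strains on the y axis. Acaa2 moves from 0.20 to 0.61, and the BXD strains among the 23 were chosen for agreement between diets.

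The parental strains differed in nearly every gene of both pathways, with the higher level in DBA/2J. In the same limma fit 31 of 35 genes were higher in DBA/2J and 0 lower, 16 of 19 in fatty acid oxidation and 15 of 16 in the citrate cycle and pyruvate group, against 11.7% of all genes called in either direction and 7.08% called higher in DBA/2J. The estimate was above 0 for all 35 genes, with a median of 0.81 units. Each parent has 1 array per diet, so the error comes from how far the diet changes of all strains differ, and not from the spread of their levels. Without the 15 strains 16 and 16 genes were called, against 15% of all genes, and without the C57BL/6J high fat array 15 and 13, against 4.95%. Etfb, Dld and Pdhb were lost there (adjusted p = 0.0939, 0.0516 and 0.115, limma).

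Cpt1b had the largest difference, with levels of 8.89 on chow and 9.38 on high fat in C57BL/6J, and 10.94 and 11.75 in DBA/2J. DBA/2J stood above C57BL/6J on both diets, by 2.21 (SE 0.41, adjusted p = 0.000725) units in limma. Hadhb measured 11.36 on chow and 12.35 on high fat in C57BL/6J, and 13.19 and 13.43 in DBA/2J, and Slc25a20 10.56 on chow and 11.33 on high fat in C57BL/6J, and 12.22 and 12.45 in DBA/2J. Their differences were 1.45 (SE 0.25, adjusted p = 0.000429) and 1.39 (SE 0.24, adjusted p = 0.000465) units in limma. In both genes the gap was wider on chow than on high fat, and the difference between the diets was not tested. Decr1 measured 11.55 on chow and 12.16 on high fat in C57BL/6J, and 13.02 and 13.18 in DBA/2J, a difference of 1.24 (SE 0.25, adjusted p = 0.00137) units in limma. Acadvl measured 10.98 on chow and 10.80 on high fat in C57BL/6J, and 11.82 and 12.25 in DBA/2J, a difference of 1.14 (SE 0.17, adjusted p = 0.000178) units in limma, and C57BL/6J was lower on high fat than on chow while DBA/2J was higher.

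In the citrate cycle and pyruvate group Dlat measured 9.78 on chow and 10.16 on high fat in C57BL/6J, and 11.34 and 11.26 in DBA/2J, a difference of 1.33 (SE 0.26, adjusted p = 0.00123) units in limma. Idh3a measured 11.54 on chow and 12.47 on high fat in C57BL/6J, and 13.04 and 13.33 in DBA/2J, and differed by 1.18 (SE 0.30, adjusted p = 0.00834) units in limma. Pdhb measured 12.99 on chow and 12.62 on high fat in C57BL/6J, and 14.12 and 13.65 in DBA/2J, and differed by 1.08 (SE 0.30, adjusted p = 0.0142) units in limma. All 3 were higher in DBA/2J on both diets. The 4 genes that did not pass were Cpt1a, Acadl, Eci1 and Pcx, with differences of 0.57 (SE 0.26, adjusted p = 0.15), 0.12 (SE 0.24, adjusted p = 0.787), 0.25 (SE 0.23, adjusted p = 0.509) and 0.63 (SE 0.22, adjusted p = 0.0524) units in limma. Cpt1a, with the largest diet change of the 35 genes, was thus among the few whose parental difference over both diets did not pass. It measured 10.548 on chow and 11.845 on high fat in C57BL/6J, and 11.461 and 12.078 in DBA/2J. Its gap was wider on chow, and the difference between the diets was not tested. Pcx passed when any of 7 BXD strains was left out (adjusted p down to 0.0326, limma).

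On chow C57BL/6J was the lowest of 42 strains for 16 of 35 genes (45.7%, against 7.55% of all genes), and DBA/2J was among the highest 3 for 27 of 35 (77.1%, against 5.9%). On high fat DBA/2J was the highest of 38 strains for 28 of 35 genes (against 5.2% of all genes), while C57BL/6J was the lowest for 0 (against 20.2%). The median change from chow to high fat over the 35 genes was 0.49 units in C57BL/6J and 0.23 units in DBA/2J.

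**Figure D3:**
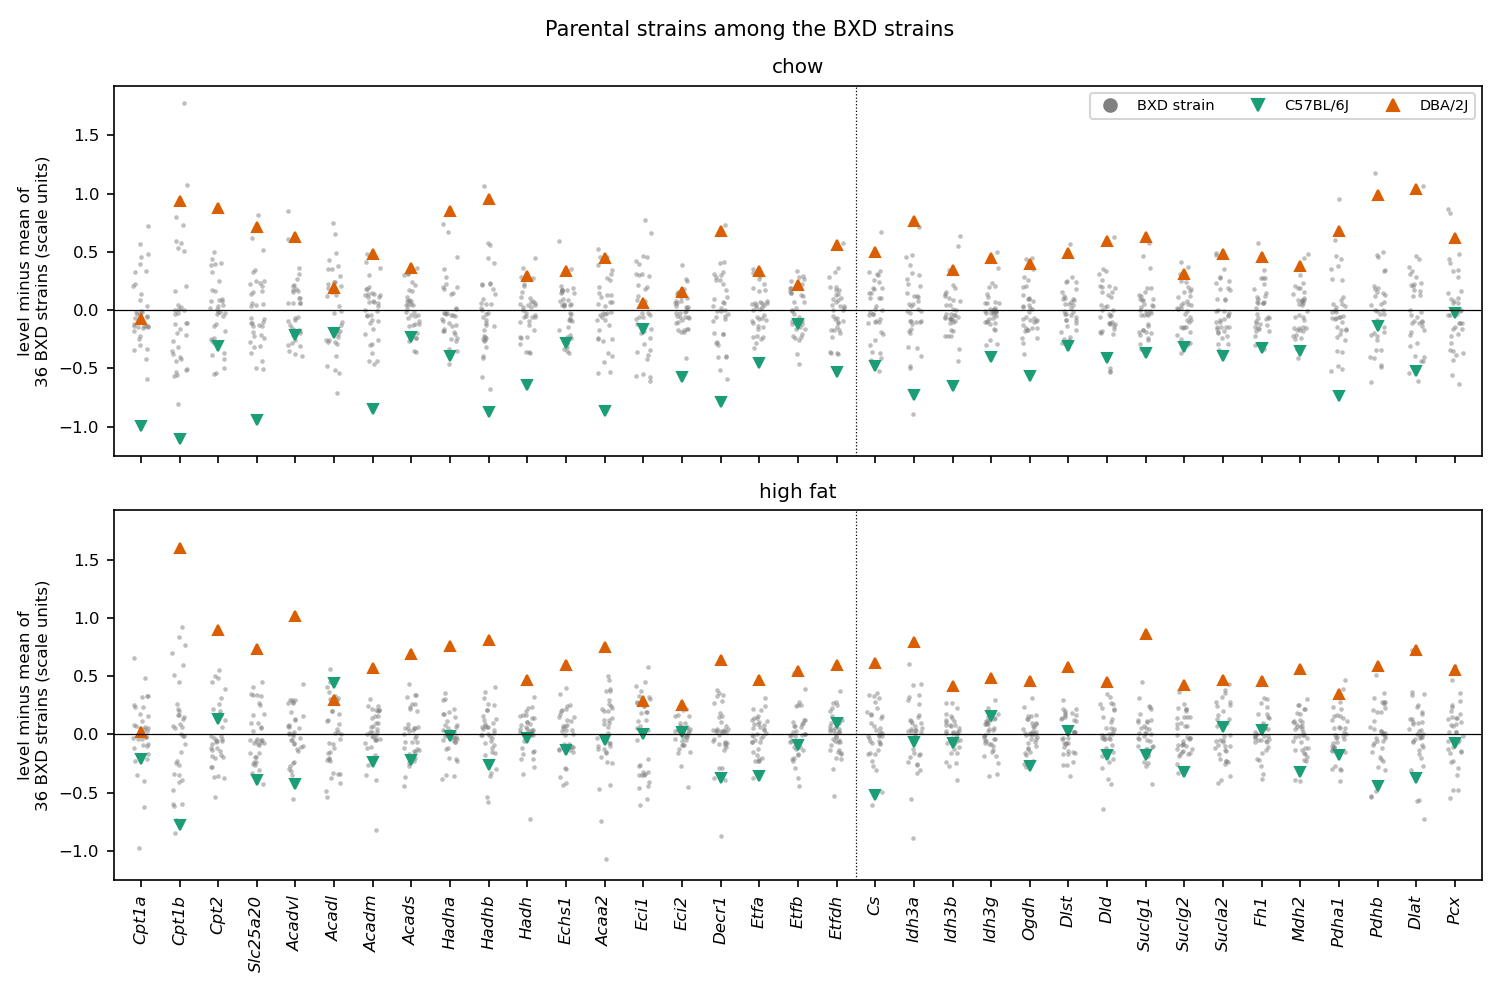
Each column is a gene and each grey point a BXD strain, plotted as its level minus the mean of the 36 BXD strains in scale units on chow (above) and high fat (below), with triangles for C57BL/6J and DBA/2J; the dotted line parts fatty acid oxidation from citrate cycle and pyruvate genes. DBA/2J is the highest of all 38 strains for 28 of 35 genes on high fat.

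Beige fat markers differed between the parents in the same direction. Ucp1 measured 6.96 on chow and 7.11 on high fat in C57BL/6J, and 11.58 and 13.41 in DBA/2J, a difference of 5.46 (SE 1.04, adjusted p = 0.000965) units in limma. Of the 10 brown and beige markers 6 were higher in DBA/2J and 0 lower (Ucp1, Cidea, Elovl3, Otop1, Cox7a1 and Kcnk3), and their mean in DBA/2J, 10.15 on chow and 10.63 on high fat, was the highest of the 38 strains on each diet. Of the fat cell markers 3 of 12 were called higher in DBA/2J, and of the macrophage, muscle, B cell and skin markers 0, against 7.08% of all genes. In these lists 0 markers were called lower. Yet 0 of the 10 B cell and lymph node markers had an estimate above 0, and their median was -1.83 units. Their list mean was 11.24 on chow and 10.78 on high fat in C57BL/6J, and 10.29 and 8.23 in DBA/2J. Muscle marker means were low in both parents, 9.43 and 8.86 in C57BL/6J and 8.91 and 8.92 in DBA/2J. With the beige mean as a covariate 0 of the 31 genes were called, and 0.0515% of all genes were, against 11.7% without it. The beige mean of C57BL/6J was 8.58 on chow and 8.89 on high fat, far below that of DBA/2J. This fit can therefore hardly separate the parental difference from the beige mean, and it calls few genes of any kind. The median estimate over the 35 genes in this fit was 0.31 units, against 0.81 without the covariate. The estimate was 0.039 units for Cpt2, 0.41 for Cpt1b and 0.074 for Pdhb, and stayed closer to its first value for Acadm (0.77 units), Etfa (0.57 units) and Suclg2 (0.59 units). That of Cpt1a went from 0.57 to 0.85 units, the highest of the 35 but not past the threshold (adjusted p = 0.332, limma). Those of 3 genes turned negative (Acadl, Eci1 and Pcx). These estimates are too uncertain to rank the genes by how far they follow the beige mean. Oxidative phosphorylation genes, the respiratory chain and ATP synthase subunits, also differed between the parents in the fit without the covariate, with 30 of 36 higher in DBA/2J.

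Strain level carried over between diets for 18 of 35 genes by the moderated F test (limma, adjusted p of 0.05), 11 of 19 in fatty acid oxidation and 7 of 16 in the other pathway, against 10.4% of all genes. In the 23 strains the counts were 15 and 9, against 17.7%, and without the parental strains they were 6 and 1, against 5.02%. The called genes were Cpt1b, Cpt2, Slc25a20, Acadvl, Acadl, Acads, Hadha, Hadhb, Echs1, Eci1 and Etfb of fatty acid oxidation and Ogdh, Dlst, Suclg1, Suclg2, Mdh2, Dlat and Pcx of the other pathway. Single strains decided several of these calls. Without DBA/2J 6 fatty acid oxidation genes were called, and without BXD63 15 fatty acid oxidation and 10 citrate cycle and pyruvate genes. The calls of Dlst and Dlat were each lost on leaving out any of 18 strains, and that of Slc25a20 on leaving out any of 10. The share of variance that lay between strains had a median of 0.40 over the fatty acid oxidation genes and 0.36 over the citrate cycle and pyruvate genes, against 0.15 over all genes, and 0.57, 0.46 and 0.19 in the 23 strains. The BXD strains among the 23 were kept because their chow and high fat arrays agreed over genes that differ between the parents. That choice favours higher strain counts and shares, so the rise in the 23 strains is not independent evidence of a strain level.

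The highest shares belonged to Acadvl (0.63, adjusted p = 0.00106, limma), Acads (0.60, 0.00246), Mdh2 (0.57, 0.00429), Suclg1 (0.57, 0.00412), Echs1 (0.55, 0.00592) and Eci1, whose levels ran from 10.45 to 11.83 on chow with a median of 11.02, and from 10.50 to 11.68 on high fat with a median of 11.20 (0.53, 0.00592). Acadvl, Echs1 and Eci1 thus kept a strain level without a diet change past the threshold. Cpt1a had a share of 0.22 (adjusted p = 0.192, limma) and Eci2 the lowest of the set, -0.057. In the 23 strains the share of Eci1 was 0.81 and that of Acaa2 was 0.61, against 0.20 in all 38. The choice of the BXD strains there for agreement between diets favours such higher shares.

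Across the 38 strains the genes of both pathways varied together, within each pathway and between them. The median correlation of gene pairs on chow was 0.62 within fatty acid oxidation, 0.78 within the citrate cycle and pyruvate group and 0.67 between them, against 0.010 over all gene pairs. On high fat these medians were 0.60, 0.62 and 0.62, and for the changes 0.49, 0.66 and 0.56. The correlations describe strains that share tissue composition, the array and the scaling, and carry no test. Hadha and Hadhb, subunits of one protein whose promoters are shown above, correlated at 0.92 on chow and 0.93 on high fat. Idh3b and Idh3g correlated at 0.87 and 0.88, whereas Suclg1 and Suclg2 did so at 0.59 and 0.46. Pairs across the pathways reached similar values, with Etfdh and Idh3a at 0.93 and 0.91.

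Cpt1a stood outside this pattern in its levels. Its correlation with the mean of the other 18 fatty acid oxidation genes was 0.065 on chow, 0.14 on high fat and 0.29 for the change. For the change Cpt1b was lower, at 0.18 with the mean of the others. Between Cpt1a and Cpt1b r was -0.20 on chow, -0.016 on high fat and -0.34 for the change. Lep, the gene for the fat cell hormone leptin, followed Cpt1a instead: r was 0.71 on chow (rho = 0.72, n = 42), 0.72 on high fat (rho = 0.47, n = 38) and 0.71 for the change (rho = 0.55, n = 38), each with an adjusted permutation p of 1.71e-05. The raw p was the smallest that 100000 resamples can give, 1e-05, and p-values were adjusted over the 12 relations computed. Without the 2 strains farthest from the median of Lep, r was 0.68, 0.41 and 0.58. On high fat those strains included BXD63, whose Lep level was 11.63 while the median was 14.57. For the change in the 23 strains r was 0.66 (adjusted permutation p = 0.0018).

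Cpt1b followed the markers of the tissues where it is the usual form. Only the muscle relation set it apart from the other genes of both pathways. With the brown and beige marker mean r was 0.86 on chow (rho = 0.81), 0.84 on high fat (rho = 0.80) and 0.71 for the change (rho = 0.69), each with an adjusted permutation p of 1.71e-05, and 0.85, 0.78 and 0.63 without the 2 farthest strains. With the skeletal muscle marker mean r was 0.64 on chow (rho = 0.75, adjusted permutation p = 3e-05), 0.47 on high fat (rho = 0.56, 0.00356) and 0.72 for the change (rho = 0.67, 1.71e-05), and 0.61, 0.40 and 0.64 without the 2 farthest. Among the other genes of both pathways, r with the muscle mean was at most 0.323 on chow (Idh3b), 0.201 on high fat (Suclg1) and 0.257 for the change (Eci1). In the 23 strains the changes of Cpt1b gave r of 0.77 with the beige and 0.52 with the muscle mean (adjusted permutation p = 0.0171 for muscle). The beige relation was shared: over the strains with both diets, every gene of both pathways but Cpt1a had a positive r throughout. On chow Acadvl (0.886) and Hadha (0.881) alone exceeded Cpt1b (0.86). On high fat Hadha (0.883), Acadvl (0.873), Mdh2 (0.864) and Acads (0.861) exceeded Cpt1b (0.837). For the change Acadvl (0.791) alone exceeded Cpt1b (0.712). Pcx, tried against the fat cell hormone gene Adipoq because pyruvate carboxylase is abundant in fat cells, gave r of 0.35 on chow, 0.40 on high fat and 0.34 for the change (adjusted permutation p = 0.026, 0.0157 and 0.0378; rho = 0.29, 0.32 and 0.28). None of its rho passed (adjusted permutation p = 0.0683, 0.0602 and 0.0858), and r fell to 0.26, 0.27 and 0.32 without the 2 farthest strains.

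**Figure D4:**
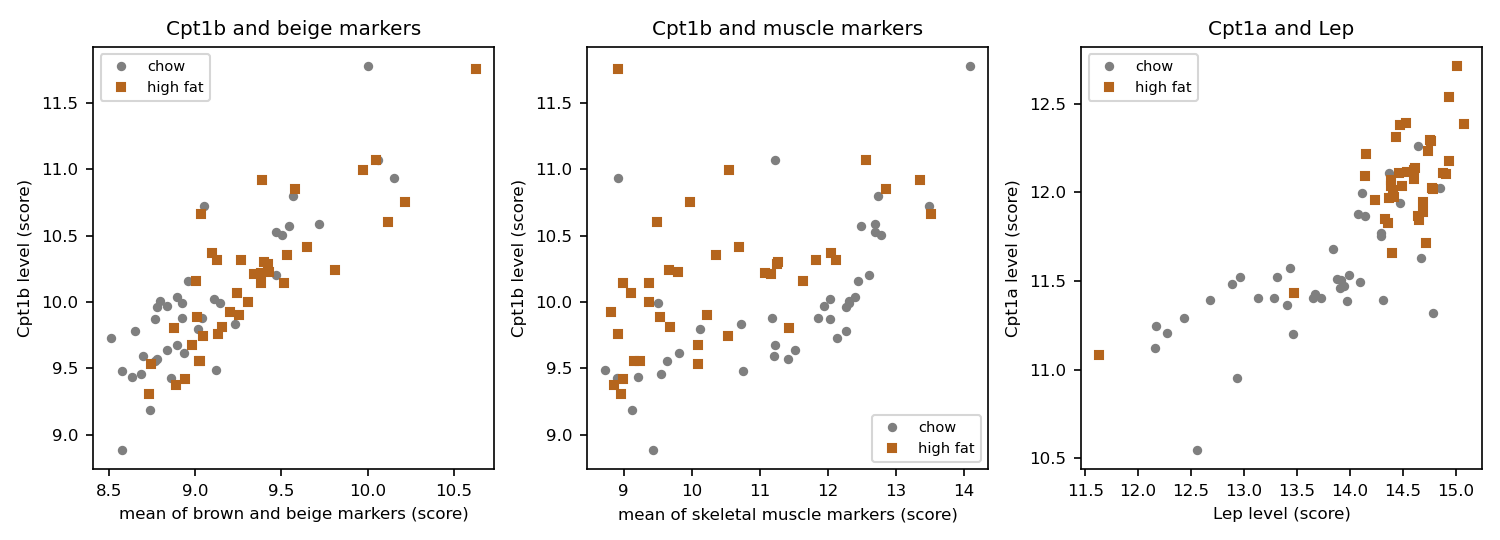
Each point is an array of 1 of the 38 strains with both diets, grey circles for chow and brown squares for high fat, with the level of Cpt1b against the brown and beige marker mean (left) and the skeletal muscle marker mean (centre) and of Cpt1a against Lep (right), all as the deposited score. The lowest Lep level, 11.63, is the BXD63 high fat array.

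Of 30 further fatty acid oxidation genes 12 rose and 3 fell, and of 33 further citrate cycle and pyruvate genes 13 rose and 4 fell (36.7% and 24.5% of all genes), while Acsl3 was not analysed here. Among the 23 strains 14 rose and 1 fell of the first list and 15 rose and 3 fell of the second, against 32.5% and 22.2% of all genes. Of 36 oxidative phosphorylation genes 18 rose and 4 fell, with a median change of 0.072 units. The peroxisomal thiolase Acaa1b rose by 0.49 ± 0.28 units, in 36 of 38 strains (adjusted p = 2.71e-12, limma), and its close copy Acaa1a by 0.27 ± 0.20 units (adjusted p = 6.84e-09, limma), and probes may not tell these copies apart. Hsd17b4, the bifunctional enzyme of peroxisomal beta-oxidation, rose by 0.37 ± 0.37 units (adjusted p = 1.07e-06, limma). Acsl1, which activates fatty acids to acyl-CoA, changed by -0.021 ± 0.58 units and did not pass (adjusted p = 0.855, limma).

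Of the inner membrane carriers that exchange citrate cycle intermediates or the amino acids linked to them, 3 were among the 12 further genes with the largest called changes: Slc25a1 for citrate rose by 0.41 ± 0.50, Slc25a10 for dicarboxylates by 0.40 ± 0.73 and Slc25a13 for aspartate and glutamate by 0.35 ± 0.29 units (adjusted p = 2.49e-05, 0.00256 and 1.35e-08, limma). Idh1, the cytosolic isocitrate dehydrogenase, rose by 0.28 ± 0.43 units and Pck2, the mitochondrial phosphoenolpyruvate carboxykinase, by 0.26 ± 0.16 units (adjusted p = 0.000515 and 1.23e-10, limma). Pdk4, a kinase that shuts down pyruvate dehydrogenase and is induced by fasting, varied by over 1 unit between strains and changed by 0.10 ± 1.02 units (adjusted p = 0.578, limma).

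Acacb, whose product malonyl-CoA inhibits carnitine palmitoyltransferase at the outer membrane, fell, with a change of -0.36 ± 0.72 units and 27 of 38 strains lower (adjusted p = 0.00536, limma). Its change in the 23 strains was -0.23 ± 0.68 units and did not pass (adjusted p = 0.143, limma). Of 18 regulators 5 rose and 4 fell, 27.8% and 22.2%, no more often than the 36.7% and 24.5% of all genes. Esrrg, a nuclear receptor of oxidative genes, rose by 0.34 ± 0.21 units in 36 strains (adjusted p = 3.42e-11, limma). The corepressor Nrip1, the catalytic AMP kinase subunit Prkaa2 and Ppargc1a fell, with changes of -0.28 ± 0.28, -0.39 ± 0.82 and -0.19 ± 0.43 units (adjusted p = 1.8e-06, 0.00777 and 0.0156, limma). Ppargc1a in the 23 strains changed by -0.065 ± 0.35 units and did not pass (adjusted p = 0.437, limma), while the other 2 kept their calls (adjusted p = 0.00235 and 0.00046, limma). The remaining further genes named here as risen were also called in the 23 strains. Ppara, the receptor that senses fatty acids, changed by -0.042 ± 0.27 units and did not pass (adjusted p = 0.401, limma). Between the parents Ppara was higher in DBA/2J by 1.00 (SE 0.19, adjusted p = 0.000797) units in limma.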

How the data were processed

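Per the submitters' processing notes, the tools were Affymetrix Expression Console and RMA. The deposited values are a score: tested on the files, every array has a mean of 8 and an SD of 2 over 65770 features, a rescaling by the authors whose steps are not given in the sources used here. No raw intensity was used, so array noise is unknown and precision rests on how many arrays there are. Of the features 26355 have no symbol, and for the rest the feature with the highest mean stood for each of 38827 genes. The column named BXD92 was read as BXD92a.

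The diet effect was the high fat coefficient of limma 3.58.1 (R 4.3.3) on 76 arrays of 38 strains, with strain as a fixed block. The strain name pairs the arrays by label; the check of that pairing stands in the report. The strain effect was the moderated F test of the strain coefficients, and the parental difference a contrast of 2 of them. P-values were adjusted by Benjamini-Hochberg over all genes, with a threshold of 0.05. The share of variance between strains is an intraclass correlation of values centred by diet. Levels quoted by diet are over the 38 strains with both diets. The pipeline was tested on simulated data. With 1 pool per strain and diet, the error in the paired limma fit is how far the diet changes differ between strains. The spread of strain levels is not part of that error.

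The genes, lists and tests were chosen with earlier results of these data known. Named with full values are the 6 genes of each pathway with the largest diet change, the 6 with the largest share between strains, the 8 with the largest parental difference past the threshold, and Cpt1a, Cpt1b, Cs and Pcx. Of the other genes the 12 with the largest called change and Pdk4, Ppara, Ppargc1a and Acsl1 are named, Idh3b as the 1 gene that fell, and marker genes where they bear on a result. Other genes under this rule are not reported here. Alternatives changed the scaling, the filter on low values, the feature per gene, the fitting, the strains used and covariates for tissue mix. The settings without the 15 strains, without each strain in turn and without the C57BL/6J high fat array were chosen after seeing the data.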

Additional observations from a re-analysis of the deposited data

How the results depend on the processing

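Counts of called genes are given first for fatty acid oxidation and then for the citrate cycle and pyruvate genes, for which the reported counts are 12 and 9 higher, 0 and 1 lower, 11 and 7 by strain and 16 and 15 by parent. The reported shares of all genes are 36.7% higher, 24.5% lower, 10.4% by strain and 11.7% by parent. With muscle, B cell and skin marker means as covariates, 4 citrate cycle genes were higher and 2 lower, against 30.1% and 17.8% of all genes. By strain 7 and 4 genes passed, against 7.27% of all genes, and by parent 10 and 10, against 5.01%. With the beige mean, 6 and 1 genes were higher, against 30.4% of all genes, and 1 and 3 lower, against 20.8%. By strain 1 and 0 passed, against 5.64% of all genes, and by parent 0 and 0, against 0.0515%. In that fit 8 diet changes turned sign. Of these Acadvl, at -0.096 units, passed as lower (adjusted p = 0.00975, limma), Pcx, called higher before, came to -0.009 units (adjusted p = 0.894, limma), and Cpt1b (-0.12 units), Echs1, Idh3g, Eci1, Hadh and Dld passed in neither fit. With the macrophage mean, 6 and 2 genes were higher and 0 citrate cycle genes lower, against 20.6% and 11.7% of all genes. Robust regression called 19 and 16 genes by strain and 2 citrate cycle genes lower, but it called 76.9% of all genes by strain and 30.2% lower. Quantile normalization gave 11 and 6 genes higher, against 30.1% of all genes, with Etfb, Etfdh, Suclg1, Fh1 and Pcx lost and Acadl gained. It gave 2 citrate cycle genes lower, against 27.9% of all genes, with Suclg2 gained. Pcx there lost its relation with Adipoq (r = 0.30, 0.25 and 0.26 on chow, on high fat and for the change). Without the parental strains 6 and 1 genes passed by strain, against 5.02% of all genes, and Etfdh lost its diet call (0.098 units, adjusted p = 0.0565, limma). Without the 15 strains 0 citrate cycle genes were lower, against 22.2% of all genes, and the change of Pcx followed that of Adipoq at r = 0.16 (adjusted permutation p = 0.44). The causes of these shifts were not tested. Leaving out 1 strain at a time gave 12 to 14 and 8 to 10 genes higher, 0 to 0 and 1 to 2 lower, 6 to 15 and 5 to 10 by strain and 16 to 16 and 15 to 16 by parent. The lowest fatty acid oxidation count by strain came without DBA/2J. Diet calls that crossed the threshold on leaving out 1 strain were those of Cpt1b, Acadl, Pcx, Eci2 and Ogdh (both without BXD63) and Suclg2 (without BXD87). With no replicate block the change of Pcx, 0.12 units, lost its call (adjusted p = 0.123, limma), as it did with all 80 arrays and strain as a random block (adjusted p = 0.0933, limma), and no other diet call changed in these fits. The filter on the lowest 40% of genes and the mean of all features of a gene changed no diet call. One pool per strain and diet, 15 strains whose labels did not match and a score without raw intensities limit these results, and small changes near the threshold, such as those of Pcx and Etfdh, moved across it most easily.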
